A study of Mus musculus with 3 samples.

Results

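Central memory CD8+ T cells were compared with naive CD8+ T cells across all genes, using the central memory and the naive library, 2 of the 3 libraries of the series. The third library, effector memory, is given beside them where its level places the other two. By their labels, all 3 libraries came from CD8+ T cells of the spleens of wild-type, untreated mice, and the labels differ only in the T cell subset. The number of animals behind a library is not stated in the labels, nor is the sort that separated the subsets. Reads were counted per gene, and the counts were scaled to CPM, counts per 1000000 counts of effective library size. Of 25638 gene names in the table, 15519 had a count in naive or central memory, and the 9737 with at least 5 CPM in at least 1 of these libraries are called measured.

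A naive T cell has not met its antigen and circulates through lymphoid organs in a quiescent state, held there by survival signals and by transcription factors of the TCF and KLF families. A central memory T cell descends from a cell that responded to antigen, keeps the receptors that let it enter lymph nodes, and can divide again on renewed contact. Effector memory T cells have lost those receptors and hold cytotoxic proteins ready in tissues and blood.

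Total counts were between 26876909 and 35846315, and a count of 0 allowed up to 0.108 CPM in naive, against 0.0837 in central memory and 0.0938 in effector memory (3 counts each). Each group has 1 library, so no difference has a replicate check and no test was run. Intervals in brackets are exact 95% counting intervals of a ratio between libraries, and cover counting error only, as do the floors. In RNA from bulk cells, fewer cells of a type and less RNA per cell cannot be told apart. The labels were checked against marker genes. In the order naive, central memory, effector memory, Cd8a stood at 1868, 1063 and 408 CPM, Cd3e at 395, 418 and 335 CPM, and Cd4 at 2.12, 0.251 and 0.281 CPM. Cd44, an adhesion receptor of antigen-experienced T cells, stood at 2.95, 45.8 and 113 CPM, and Il2rb, the beta chain of the receptor for interleukins 2 and 15, at 179.8, 982 and 1535 CPM. Ccr7, the lymph node chemokine receptor, stood at 373, 339 and 31.9 CPM. The CD8 and CD3 genes were thus present and Cd4 near 0 throughout, Cd44 and Il2rb were higher in both memory libraries, and Ccr7 was low in effector memory alone. The libraries also differed in receptor use: the beta chain variable segment Trbv12-1 made up 7.13% of Trbv counts in naive, against 99.6% in the central and 98.4% in the effector memory library. The labels, which differ only in the T cell subset, do not account for this difference in receptor use. Subset and receptor use cannot be told apart in these libraries.

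Most genes kept their naive level in central memory. Of the 9737 measured genes, 6543 (67.2%) lay within 1.5-fold of naive and 4227 (43.4%) between 0.8 times the naive level and naive divided by 0.8. A call needed 5 CPM or more in the library with the higher level, a ratio of 2 or more, and an interval that leaves out 1. By this rule of size 1092 genes were higher in central memory (11.2% of those measured) and 499 were lower (5.12%), together 16.3%. The called genes held few of the reads: the higher ones took 1.68% of naive counts and 5.58% of central memory counts, and the lower ones 4.43% and 1.45%. In effector memory the same higher genes took 10.1% of counts and the lower ones 1.58%. The median log2 ratio over all measured genes was 0.14 and moved to 0.01 with upper quartile scaling, so list medians below are to be read against 0.14 and not against 0.

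Calls were spread unevenly over expression levels. Among the 2266 genes at 100 CPM or more in naive, 26 were higher and 91 lower, and 80.8% lay within 1.5-fold. Among the 4452 genes between 20 and 100 CPM, 168 were higher and 195 lower, and between 5 and 20 CPM 327 of 2322 were higher and 213 lower. The 228 genes under 1 CPM in naive were all called higher, as were 343 of the 469 between 1 and 5 CPM. Those genes count as measured only because central memory reached 5 CPM, so their direction was set by the filter. The scatter of both libraries shows this as a dense diagonal with a column of genes near 0 in naive on its left. The filter acts the other way too: a lower gene under 5 CPM in central memory counts as measured only through naive. Of the lower genes, 79 were under 1 CPM in central memory.

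**Figure D1:**
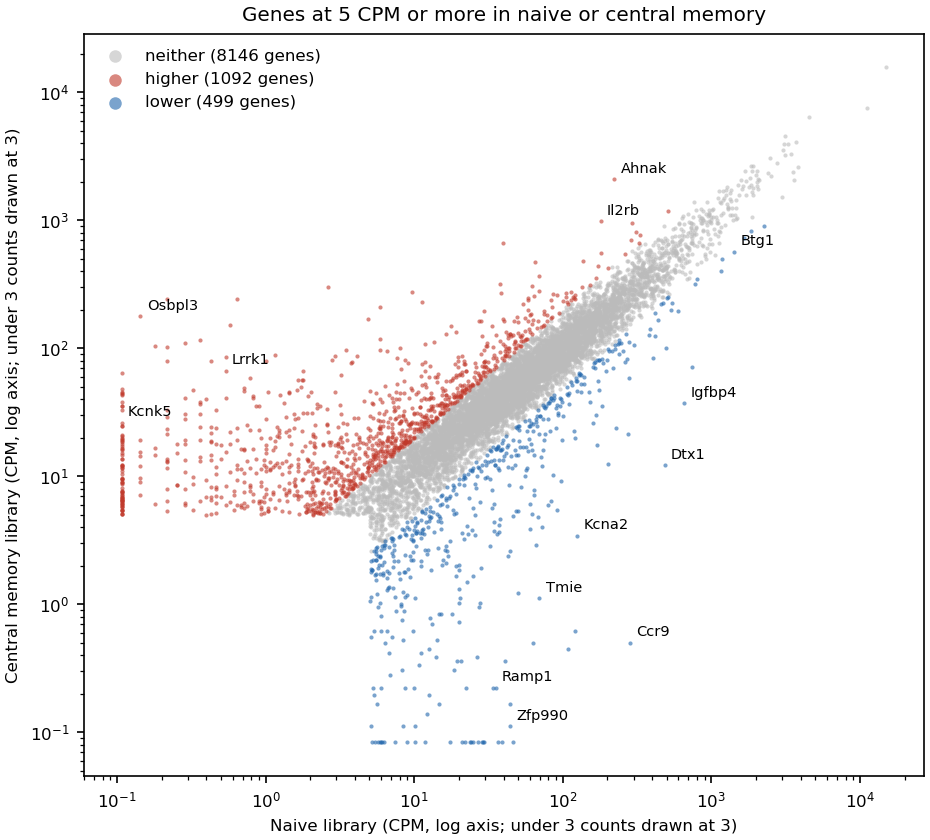
Each point is 1 of the 9737 measured genes, with its CPM in naive on the horizontal and in central memory on the vertical log axis; libraries under 3 counts are drawn at 3 counts. The 8146 genes called in neither direction fill the diagonal, the 1092 higher ones lie above it and the 499 lower ones below it.

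Sorted by where their proteins act, the gene lists had different called shares. Over the 408 measured genes of the surface lists, 26.2% were called, 15.0% higher and 11.3% lower. Over the 293 genes of the protein synthesis lists, 2.73% were called, 5 genes higher and 3 lower. Signalling lists had 19.7% of 422 genes called, traffic and cytoskeleton lists 15.5% of 537, nuclear lists 12.5% of 787, metabolic lists 12.1% of 389 and protein quality lists 9.37% of 491. Because weakly expressed genes are called more often, the same shares were taken over genes with at least 20 CPM in naive. There the surface lists had 14.7% of 265 genes called and the protein synthesis lists 1.61% of 248, beside 7.14% of all 6718 such genes. The cut is on naive alone, so it drops genes that rise from below it and keeps genes that fall from above it. Directions at that level are thus tilted towards lower and are to be read beside those of all such genes. At that level 194 of all genes were higher and 286 lower. The surface lists had 12 higher and 27 lower, the traffic and cytoskeleton lists 12 higher and 11 lower, and the metabolic lists 14 higher and 4 lower. Of the 67 traffic and cytoskeleton genes called higher over all levels, 39 were under 5 CPM in naive, as were 34 of the 61 surface genes and 12 of the 39 metabolic ones, so their direction was set by the filter. These are descriptions of 2 libraries, and whether any list stands apart from other genes was not tested. List counts below are to be read against 11.2% higher and 5.12% lower, the shares over all measured genes.

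**Figure D2:**
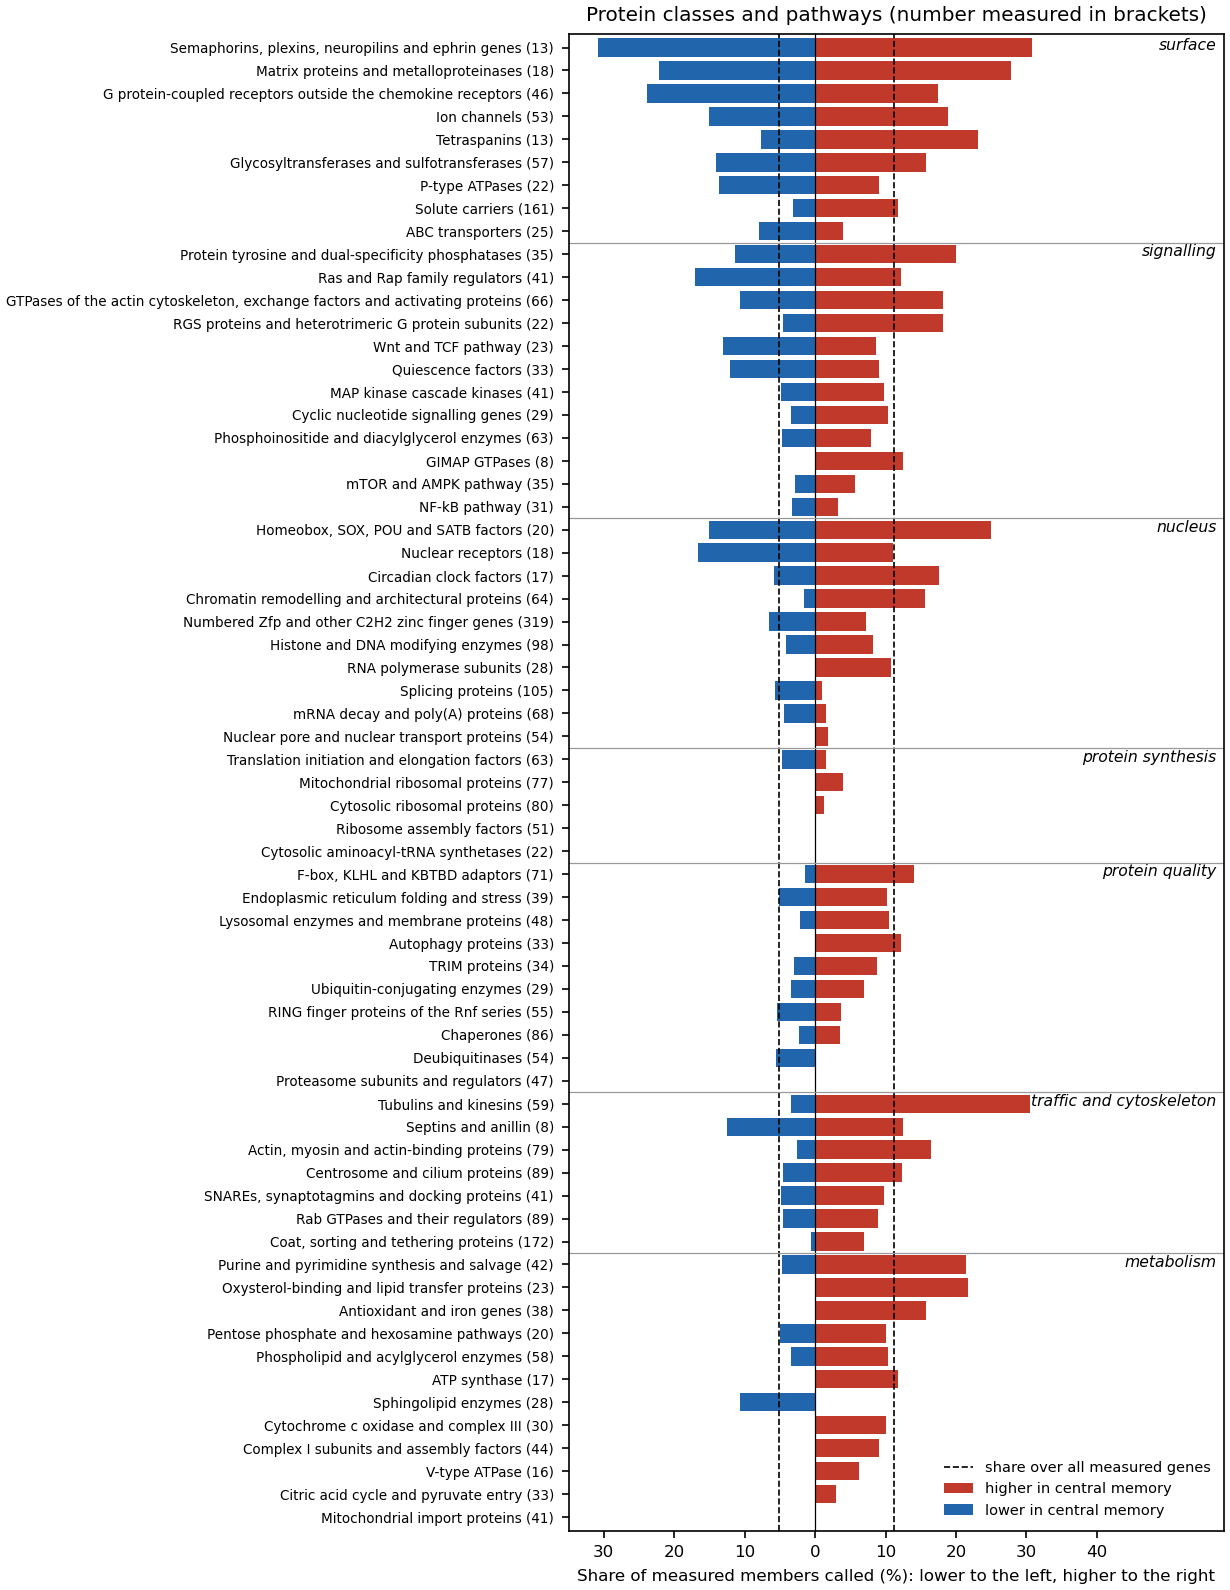
Bars give, for each list of protein classes or pathways with at least 8 measured members, the share of measured members called lower (left) and higher (right) in central memory, in percent, grouped by where the proteins act. Dashed lines mark the shares over all measured genes, 5.12% lower and 11.2% higher; each surface list passes at least 1 of them, and no ribosome assembly, aminoacyl-tRNA synthetase, proteasome or mitochondrial import gene was called.

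At the cell surface, G protein-coupled receptors were called in both directions. These receptors sense hormones, lipids, nucleotides and neuropeptides and signal through cyclic AMP or calcium. Of 212 such genes outside the chemokine receptors, 46 were measured, and 8 were higher and 11 lower, 4 of the 8 from under 5 CPM in naive. Ramp1, the accessory chain that makes the receptor for calcitonin gene-related peptide (ENSMUSG00000034353.14, chromosome 1, 91179822 to 91225196, GENCODE M21 on GRCm38, as for all coordinates of genes), stood at 35.4 CPM in naive, with 0.223 in central memory and 2.06 in effector memory, 159-fold lower (interval 80.1 to 368). Its partner receptor Calcrl stood at 32.6, 16 and 6.38 CPM and was 2.04-fold lower (interval 1.83 to 2.27). Both chains of this neuropeptide receptor were thus lower in central memory. Vipr1, a receptor for vasoactive intestinal peptide, stood at 108, 43.2 and 0.438 CPM, and the cannabinoid receptor Cnr2 at 57.2, 11.7 and 2.91 CPM. Both were lower in central memory than in naive and lower again in effector memory. Gpr55, a receptor for lysophosphatidylinositol, did not follow that order, at 20.1, 1.03 and 20.9 CPM. Adgrg5, an adhesion receptor, was the most abundant of the lower ones, at 405, 84.7 and 117 CPM.

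The receptors that were higher sense other ligands. Adora2a, a receptor for adenosine, stood at 8.12 CPM in naive, with 69.4 in central memory and 39.8 in effector memory and was 8.54-fold higher (interval 7.45 to 9.83). Ptger2, a prostaglandin E2 receptor, stood at 2.12, 18.1 and 18.9 CPM, 8.56-fold higher (interval 6.55 to 11.4). S1pr2, a sphingosine 1-phosphate receptor, stood at 3.31, 12.8 and 18.2 CPM and F2r, the thrombin receptor, at 63.4, 167 and 205 CPM. Adora2a, Ptger2 and F2r were thus above naive in both memory libraries. Downstream, Gna15, a G protein alpha subunit of blood cells, stood at 2.98, 14.5 and 47 CPM and Gng2, a gamma subunit, at 61.6, 154 and 178 CPM. Of 22 measured RGS and heterotrimeric G protein genes 4 were higher and 1 lower. The lower one was Rgs2, a protein that speeds the switching off of G proteins, at 46.4, 4.86 and 5.35 CPM, while Rgs16 was higher, at 0.323, 8.68 and 23.4 CPM. Cyclic nucleotide genes had 3 of 29 higher (10.3%) and 1 lower (3.45%), near or under the 11.2% and 5.12% of all measured genes. Among them were the phosphodiesterase Pde4a at 0.611, 7.12 and 33.6 CPM and the adenylate cyclase Adcy6 at 51.1, 18.9 and 14.6 CPM.

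Ion channels were also called in both directions, with 10 of 53 measured genes higher and 8 lower of 214 in the table. Of the 10, 5 came from under 5 CPM in naive. Potassium channels, which set the membrane potential that drives calcium entry, had 4 higher and 4 lower of 11 measured. This subgroup was chosen after its values were seen. Kcna2, a voltage-gated channel (ENSMUSG00000040724.5, chromosome 3, 107101146 to 107115005), stood at 125 CPM in naive, with 3.43 in central memory and 0.0625 in effector memory and was 36.4-fold lower (interval 30.4 to 44). Kcnc1, another voltage-gated channel, stood at 36.2, 3.55 and 0.188 CPM and Kcnh3 at 5.39, 0.195 and 0.0313 CPM. These voltage-gated channels were lower in central memory and near or under the floor of 3 counts in effector memory. Kcnk5, a background channel of the tandem-pore family (ENSMUSG00000023243.9, chromosome 14, 20140057 to 20181809), went the other way. It had 2 counts in naive and stood at 0.0719, 26.3 and 95.7 CPM, 366-fold higher (interval 101 to 3029). Its relative Kcnk6 stood at 1.01, 7.29 and 21.5 CPM, Kcnq5 at 2.05, 12.7 and 21.2 CPM and the inward rectifier Kcnj8 at 0.431, 5.11 and 2.1 CPM. All 4 potassium channels that were higher were under 5 CPM in naive, and all 4 that were lower were under 5 CPM in central memory. The direction of each was thus set by the filter. Kcna3, Kcnn4 and the channel subunit gene Kcnab2 were called in neither direction. They stood at 68.6, 89.6 and 29.3 CPM, 168, 190 and 169 CPM and 332, 375 and 317 CPM. The summed level of all potassium channel genes was 764 CPM in naive, with 737 in central memory and 681 in effector memory. P2rx7, the ATP-gated channel whose opening can kill T cells, stood at 19, 2.01 and 1.59 CPM and was 9.44-fold lower (interval 7.37 to 12.3). Orai3, a calcium channel subunit, was higher at 18.6, 41.7 and 22.4 CPM, and its relative Orai2 stood near its naive level at 370.4, 317 and 52.8 CPM.

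Ion pumps stood on both sides, and exporters of cholesterol were lower. Atp2b4, a plasma membrane calcium pump (ENSMUSG00000026463.17, chromosome 1, 133699457 to 133801041), stood at 4.85 CPM in naive, with 171 in central memory and 302 in effector memory and was 35.2-fold higher (interval 29.6 to 42). Atp1b1, a beta chain of the sodium pump, stood at 61.7, 5.11 and 0.281 CPM and was 12.1-fold lower (interval 10.4 to 14.1). Over all P-type ATPase genes 2 of 22 measured were higher and 3 lower. The cholesterol exporters Abca1 and Abcg1 stood at 83.1, 6.45 and 5.1 CPM and 139.5, 59.8 and 36.7 CPM, 12.9-fold lower (interval 11.3 to 14.8) and 2.33-fold lower (interval 2.21 to 2.46). They were the 2 lower members of 25 measured ABC transporters, of which 1 was higher.

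Among the semaphorin, plexin, neuropilin and ephrin genes, guidance molecules first known from the nervous system, 13 of 55 were measured and 8 were called, 4 each way. The neuropilins changed places. Nrp2 (ENSMUSG00000025969.15, chromosome 1, 62703285 to 62818695) stood at 10.1 CPM in naive, with 0.112 in central memory and 0 in effector memory and was 90.1-fold lower (interval 34.8 to 333). Nrp1, its close relative, stood at 0.467, 7.06 and 20.5 CPM and was 15.1-fold higher (interval 8.68 to 28.8). The semaphorins Sema4c and Sema6d were at 0 in naive and at 6.9 and 7.73 CPM in central memory, at least 64-fold higher in the one case and at least 71.7-fold higher in the other, and Sema4b was lower, at 63.1, 22.4 and 6.88 CPM. Plxna3, a semaphorin receptor, stood at 8.52, 1.79 and 0.625 CPM, and Ephb6, a kinase-dead ephrin receptor, at 23.4, 6.78 and 5.32 CPM. All 4 higher members were under 5 CPM in naive, and the lower members Nrp2 and Plxna3 were under 5 CPM in central memory. The direction of these genes was set by the filter. The levels of receptors, channels and guidance molecules in the 3 libraries cross between naive and central memory in the plot of levels.

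**Figure D3:**
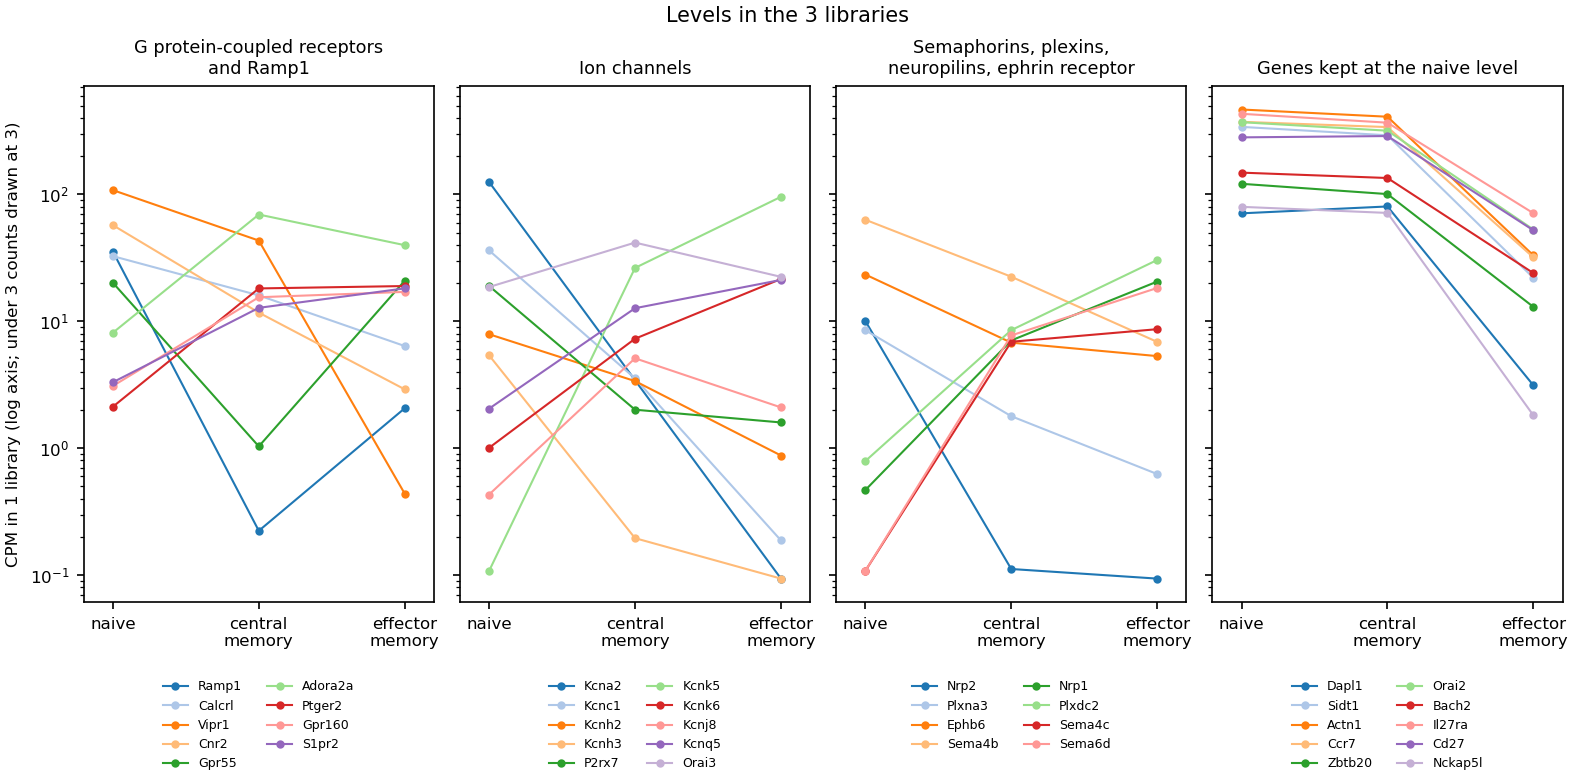
CPM on a log axis in the naive, central memory and effector memory libraries, 1 line per gene and 1 library per point, with libraries under 3 counts drawn at 3 counts. The first 3 panels hold called surface genes, whose lines cross between naive and central memory; the last holds genes that central memory kept between 0.8 times the naive level and naive divided by 0.8, whose lines drop between central and effector memory.

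Matrix proteins and metalloproteinases had 5 of 18 measured genes higher and 4 lower, and 4 of the 5 were under 5 CPM in naive, Lamc1 and Adam8 among them. Lamc1, the gamma-1 chain of laminin in basement membranes, stood at 0.539 CPM in naive, with 40.8 in central memory and 65.6 in effector memory and was 75.7-fold higher (interval 45.7 to 136). Adam8, a membrane protease that sheds surface proteins, stood at 1.94, 42.7 and 554 CPM, 22-fold higher (interval 16.8 to 29.4). Timp2, a metalloproteinase inhibitor, stood at 63.9, 7.87 and 0.125 CPM and was 8.11-fold lower (interval 7.15 to 9.23). Tetraspanins, membrane proteins that organise other receptors, had 3 of 13 higher and 1 lower. Tspan9 was the lower one, at 63.4, 0.502 and 18.9 CPM, and Tspan4, Tspan31 and Cd151 were higher. The glycan-building enzymes had 9 of 57 measured genes higher and 8 lower. Chst2, a sulfotransferase that builds selectin ligands, was at 0 in naive and at 24.7 CPM in central memory, at least 229-fold higher, and at 3.5 CPM in effector memory. Fut7, the fucosyltransferase of selectin ligands, stood at 1.4, 6.39 and 27.6 CPM. Enzymes that begin mucin-type glycans went both ways, with Galnt3 at 0, 9.04 and 44.5 CPM, Galnt10 at 175, 47 and 18.4 CPM and Galnt6 at 388, 142 and 187 CPM. St6gal1, which adds alpha-2,6-linked sialic acid, was lower in central memory and not in effector memory, at 139.6, 52.6 and 255 CPM. Chondroitin sulfate enzymes were higher in 3 cases, Chsy1 at 43.1, 126 and 253 CPM, Chst11 at 12, 40.2 and 38.3 CPM and Chst12 at 13.4, 40.8 and 71.5 CPM, and lower in 1, Chst15 at 40.1, 14.3 and 5.97 CPM.

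Solute carriers had 19 of 161 measured genes higher (10 of them from under 5 CPM in naive) and 5 lower. These shares, 11.8% and 3.11%, lay near or under the 11.2% and 5.12% of all measured genes. The Slc25 family, the carriers of the inner mitochondrial membrane, had 8 of 37 higher and 0 lower, beside 11 higher and 5 lower of 124 other carriers. That split was chosen after the values were seen. Slc25a24, an ATP-magnesium carrier, stood at 5.18, 37.6 and 109.7 CPM and was 7.27-fold higher (interval 6.11 to 8.69). Slc25a1, the citrate carrier, stood at 11.6, 29.1 and 70.5 CPM and Slc25a10, the dicarboxylate carrier, at 7.33, 16.4 and 23.8 CPM. Both ratios to naive were under 3. Slc29a1, a nucleoside transporter, stood at 26.8, 63.8 and 69.4 CPM and Slc39a6, a zinc importer, at 42.6, 101 and 114 CPM. The 5 lower carriers included Slc12a7, a potassium chloride cotransporter, at 598, 195 and 46.1 CPM, Slc6a19, a neutral amino acid transporter, at 71, 14.1 and 2.63 CPM, and Slc15a2, a peptide transporter, at 74.4, 19.3 and 10.8 CPM.

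Inside the membrane, regulators of small GTPases were called in both directions. Of 66 measured GTPases, exchange factors and activating proteins of the family that steers the actin cytoskeleton, 12 were higher and 7 lower. Srgap3, an activator of GTP hydrolysis by Rac, stood at 1.8 CPM in naive, with 56.1 in central memory and 68.1 in effector memory and was 31.2-fold higher (interval 23.6 to 42.2). Plekhg3, an exchange factor, stood at 1.37, 29.3 and 44.7 CPM and Arhgap21 at 1.15, 18.8 and 63.6 CPM. Lower members included Arhgef11, an exchange factor for RhoA, at 52.2, 8.26 and 8.76 CPM and Arhgap5, a GTPase activating protein, at 25.6, 3.49 and 4.03 CPM. Exchange factors and activating proteins therefore stood on both sides. Ras and Rap regulators had 5 of 41 higher (12.2%) and 7 lower (17.1%), beside 11.2% and 5.12% of all measured genes. The inhibitor Spry2 had 4 counts in naive and stood at 0.144, 9.71 and 10.9 CPM, while the inhibitors Spred1 and Spred2 were lower at 18.5, 5.08 and 15.3 CPM and 57.1, 22.7 and 53.3 CPM. Rasal1 and Rasa2, which switch Ras off, were lower at 19, 1.67 and 1.56 CPM and 93.4, 30.1 and 38.4 CPM.

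Phosphatases, too, were called in both directions. Protein tyrosine and dual-specificity phosphatases had 7 of 35 measured genes higher and 4 lower, while MAP kinase cascade kinases had 4 of 41 higher and 2 lower. The kinase shares, 9.76% and 4.88%, lay near the 11.2% and 5.12% of all measured genes. The receptor phosphatase Ptprj stood at 1.73 CPM in naive, with 49.9 in central memory and 57 in effector memory, 28.9-fold higher (interval 21.7 to 39.4), and Ptprs stood at 27.2, 164 and 174 CPM, 6.04-fold higher (interval 5.6 to 6.52). Dusp1, a MAP kinase phosphatase and immediate early gene, stood at 91.1, 5.44 and 9.26 CPM and was 16.7-fold lower (interval 14.5 to 19.5). Other MAP kinase phosphatases went both ways, with Dusp5 at 9.74, 34 and 66.8 CPM, Dusp16 at 3.23, 13 and 9.63 CPM, Dusp2 at 239, 110.04 and 51.5 CPM and Dusp10 at 50.5, 24.6 and 14.5 CPM. In the phosphoinositide list, 5 of 63 were higher and 3 lower. Inppl1, a phosphoinositide 5-phosphatase, stood at 2.62, 22.1 and 36.1 CPM and Pik3ap1, an adaptor of phosphoinositide 3-kinase, at 1.44, 14.9 and 127 CPM. NF-kB pathway genes had 1 of 31 higher and 1 lower. The lower one was Tnfaip3, the inhibitor A20, at 195, 66.2 and 58.3 CPM. The mTOR and AMPK list had 2 of 35 higher, Sesn2 at 3.27, 16.8 and 29.8 CPM and Eif4ebp1 at 4.35, 18.4 and 85.2 CPM, and 1 lower, the GTPase Rragd at 6.76, 0.419 and 0.625 CPM.

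The quiescence factors did not move as 1 group, with 3 of 33 higher and 4 lower (median log2 ratio -0.17). Tsc22d3, the glucocorticoid-induced leucine zipper, stood at 262 CPM in naive, with 78.2 in central memory and 40.1 in effector memory and was 3.35-fold lower (interval 3.2 to 3.5). Btg1, an antiproliferative protein and activator of mRNA deadenylation, stood at 1419, 570.03 and 144 CPM, 2.49-fold lower (interval 2.45 to 2.53). Klf2, the transcription factor of quiescence and lymphoid homing, stood at 512, 250.4 and 7.25 CPM and was 2.04-fold lower (interval 1.99 to 2.1), with a far lower level in effector memory. Zfp36, which promotes the decay of cytokine mRNAs, stood at 175, 81.2 and 37.1 CPM and was the fourth lower member. Cdkn2c, a cell cycle inhibitor and one of the higher members, stood at 2.23, 36.5 and 68.6 CPM, 16.4-fold higher (interval 12.7 to 21.5). Mxd4, a MAX partner that opposes MYC, stood at 69.7, 279 and 55.9 CPM and was 4.0-fold higher (interval 3.81 to 4.2), and Btg2, the relative of Btg1, stood at 117, 252 and 71.1 CPM. Mxd4 and Btg2 were above naive in central memory and below it in effector memory. Btg2 lost its call with upper quartile scaling. Among Wnt and TCF genes 2 of 23 were higher and 3 lower, with Tcf7 at 1449, 1091 and 51.5 CPM, called in neither direction, and its relative Lef1 at 472, 227 and 61.1 CPM, 2.08-fold lower (interval 2.02 to 2.14).

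In the nucleus, transcription factors of several families were called in both directions. Homeobox, SOX, POU and SATB factors had 5 of 20 measured genes higher and 3 lower. Hopx, a homeodomain protein of memory cells, stood at 14.2, 59.8 and 64.2 CPM, Sox12 at 3.49, 21.3 and 7.47 CPM and Pou6f1 at 46, 127 and 8.07 CPM. Pou6f1 and Sox12 were thus higher in central memory than in either other library. Zhx2 stood at 93.4, 31.1 and 4.66 CPM and Pou2af1, a coactivator of B cells, at 13.5, 3.68 and 0 CPM. Of 319 measured zinc finger genes, 23 were higher and 21 lower, 7.21% and 6.58%, beside 11.2% and 5.12% of all measured genes. Zbtb7b, known as ThPOK and the lineage factor of CD4 T cells, stood at 1.33 CPM in naive, with 37.4 in central memory and 93.6 in effector memory, 28.1-fold higher (interval 20.3 to 40.1). Zfp990 (ENSMUSG00000078503.9, chromosome 4, 145510759 to 145539188) stood at 44, 0.112 and 0.125 CPM and was 394-fold lower (interval 153 to 1448). It belongs to a family of close tandem copies, whose reads the counting could split. Klf3, a repressor related to Klf2, stood at 301, 105 and 6.29 CPM and Klf9 at 1.94, 13.1 and 4.94 CPM. Nuclear receptors had 2 of 18 higher and 3 lower. Rarg, a retinoic acid receptor, stood at 75.7, 21.4 and 8.63 CPM, while Nr4a2 and Nr4a3, factors induced by receptor signals, stood at 1.62, 7.7 and 4.88 CPM and 7.04, 20.4 and 12.8 CPM. Clock factors had 3 of 17 higher and 1 lower, with Per2 at 16.3, 2.09 and 2.5 CPM and Per3 at 3.95, 9.88 and 1.88 CPM.

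Chromatin genes were mostly within the rule. Histone and DNA modifying enzymes had 8 of 98 measured genes higher (8.16%) and 4 lower (4.08%), under the 11.2% and 5.12% of all measured genes. Tet1, which oxidises methylated cytosine (ENSMUSG00000047146.17, chromosome 10, 62804570 to 62908996), stood at 44.2 CPM in naive, with 2.62 in central memory and 5.41 in effector memory and was 16.8-fold lower (interval 13.7 to 21). The histone demethylases Kdm6b and Kdm7a stood at 111, 36.7 and 25 CPM and 239.7, 89.5 and 38 CPM, both lower. Uhrf1, which keeps DNA methylation through replication, stood at 7.69, 83.5 and 436 CPM, 10.9-fold higher (interval 9.45 to 12.5). Ezh2, the methyltransferase of Polycomb, stood at 21.8, 74.9 and 245 CPM, and Nsd2, an H3K36 methyltransferase, at 19.1, 134 and 355 CPM. Among the members named here, 3 enzymes that remove methyl groups or oxidise them were lower, while Uhrf1 and these 2 methyltransferases were higher. Other called members of the list are not given, so these do not describe the list as a whole. Chromatin remodelling and architectural proteins had 10 of 64 higher and 1 lower. Among the higher ones were Top2a at 9.7, 274 and 1331 CPM, Chaf1a at 2.34, 35.4 and 151 CPM and Hmgb2 at 62.1, 308 and 1250.2 CPM, which are known to be abundant in dividing cells. The cell division genes Mki67 and Ccna2, at 2.62, 301 and 1819 CPM and 0.323, 46.9 and 279 CPM, moved with them, and the part of division in these differences was not tested.

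The machinery of RNA and protein production stood close to naive. Among 105 splicing proteins 1 was higher and 6 were lower, and among 54 nuclear pore and transport proteins 1 was higher, the importin Kpna2 at 19.8, 85.4 and 236 CPM. None of 51 ribosome assembly factors and none of 22 cytosolic aminoacyl-tRNA synthetases was called, and 94.1% and 90.9% of them lay within 1.5-fold. Of 80 measured ribosomal proteins 1 was higher, Rpl29 at 309, 815 and 588 CPM, a gene with near-identical processed copies whose reads could be split. Mitochondrial ribosomal proteins had 3 of 77 higher. All 3 (Mrps25, Mrpl4 and Mrpl14) lost the call with at least 1 other scaling. Translation factors had 1 of 63 higher and 3 lower, among them Eif4a2, a helicase of initiation, at 1185, 498 and 407 CPM and Eif1, which helps to pick the start codon, at 438, 165 and 307 CPM. Of the 10 largest gains in CPM, 7 were nevertheless in this machinery. Eef2, the elongation factor that moves the ribosome along, gained most, from 4531 to 6465 CPM, and Rplp0, a protein of the ribosomal stalk, went from 3136 to 4531 CPM. Both stayed under the ratio of 2. Eef1a1, also among the 7, went from 14874 to 15620 CPM, only 1.05-fold higher. A ranking by gain in CPM favours abundant genes, and a gain as small as that of Eef1a1 depends on the scaling. The median log2 ratio of the ribosomal proteins was 0.23, beside 0.14 over all measured genes.

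Protein quality control was largely kept, with single exceptions of large size. None of 47 proteasome genes was called, and 93.6% lay within 1.5-fold. Chaperones had 3 of 86 higher and 2 lower. In the endoplasmic reticulum list 4 of 39 were higher and 2 lower. Atf6, a sensor of unfolded proteins (ENSMUSG00000026663.6, chromosome 1, 170704674 to 170867771), stood at 5.03 CPM in naive, with 46.5 in central memory and 30.2 in effector memory, 9.25-fold higher (interval 7.78 to 11.1), and Trib3, a target of the stress factor ATF4, at 1.55, 23.9 and 50.03 CPM, 15.5-fold higher (interval 11.4 to 21.5). Dnajb9, a chaperone of the same organelle, stood at 62.5, 16.1 and 9.57 CPM, and Atf4 itself at 204, 95 and 268 CPM, both lower. The 4 genes of this stress response therefore differed in direction. F-box proteins, the substrate adaptors of SCF ubiquitin ligases, had 9 of 45 higher and 0 lower, a subgroup chosen after its values were seen. Fbxw8 stood at 11.8, 67.1 and 63.5 CPM and Fbxo44 at 0.395, 9.35 and 13.5 CPM. Deubiquitinases had 0 of 54 higher and 3 lower, among them Usp18, the interferon-induced protease for ISG15, at 72, 12 and 2.1 CPM. Rnf213, a very large interferon-induced ubiquitin ligase, had the largest loss in CPM of any called gene, at 2258, 901 and 250.03 CPM. Autophagy genes had 4 of 33 higher (12.1%, near the 11.2% of all measured genes) and 0 lower. Gabarapl1, which coats the autophagosome membrane (ENSMUSG00000030161.8, chromosome 6, 129533160 to 129542346), stood at 1.76, 56.8 and 69.4 CPM and was 32.2-fold higher (interval 24.3 to 43.7). Tfeb, the transcription factor of lysosome genes, stood at 11.8, 25.5 and 20.3 CPM and lost its call with upper quartile scaling. Lysosomal genes had 5 of 48 higher (10.4%, also near that share) and 1 lower. Among the higher ones were the sulfatase Arsb at 21, 87.6 and 76.1 CPM and progranulin, Grn, at 11, 34.8 and 83.5 CPM.

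Among cytoskeleton genes, tubulins and kinesins had 18 of 59 measured genes higher and 2 lower. Of the 18, 12 were under 5 CPM in naive, so their direction was set by the filter. Kinesins alone had 11 of 29 higher, 7 of them from under 5 CPM in naive, and 0 lower, and most of the 11 are motors of the mitotic spindle. Kif11, which pushes spindle poles apart, stood at 0.791 CPM in naive, with 59 in central memory and 362 in effector memory, and Kif14, a motor of cytokinesis with 2 counts in naive, at 0.0719, 14.6 and 96.4 CPM. Kifc1 and Kifc5b are near-identical copies and their reads could be split. Stmn1, which destabilises microtubules, stood at 3.49, 96.8 and 408 CPM, 27.8-fold higher (interval 22.7 to 34.4). Map7, which stabilises them, was lower at 56.1, 10.1 and 6.6 CPM. Actin and myosin genes had 13 of 79 higher, 8 of them from under 5 CPM in naive, and 2 lower. Myosin heavy chains had 8 of 14 measured members higher, 5 of them from under 5 CPM in naive, and 0 lower, beside 5 higher and 2 lower of 65 other actin-binding proteins. These subgroups were chosen after their values were seen. Myo1f, a class I myosin of leukocytes (ENSMUSG00000024300.17, chromosome 17, 33555707 to 33607764), stood at 38.3, 271 and 418 CPM and was 7.06-fold higher (interval 6.62 to 7.52). Myo1c stood at 19.1, 60.1 and 41.8 CPM. Plek, the protein kinase C substrate pleckstrin, stood at 1.62, 47.2 and 72.2 CPM, 29.2-fold higher (interval 21.7 to 40.2).

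Ahnak, a giant scaffold protein under the membrane (ENSMUSG00000069833.13, chromosome 19, 8989284 to 9076914), was the largest single gain among called genes. It stood at 222 CPM in naive, with 2102 in central memory and 1620.4 in effector memory and was 9.45-fold higher (interval 9.21 to 9.7). Rab GTPases and their regulators had 8 of 89 higher (8.99%) and 4 lower (4.49%), under the 11.2% and 5.12% of all measured genes. Dennd4a, an exchange factor for Rab10, stood at 38, 320.02 and 288 CPM, 8.42-fold higher (interval 7.91 to 8.98), and Rab27b, a GTPase of secretory granules, stood at 0, 5.5 and 20.2 CPM. The SNARE and docking list had 4 of 41 higher and 2 lower. Stx11, a SNARE needed for granule release by cytotoxic cells, stood at 1.76, 15.6 and 33.1 CPM, 8.88-fold higher (interval 6.62 to 12.1), and Sytl2, a Rab27 partner, at 20.3, 62.9 and 171 CPM. Stx1a and Stx2 were lower, at 60.8, 26.1 and 2.69 CPM and 70.8, 29.8 and 24.6 CPM. Coat, sorting and tethering proteins had 12 of 172 higher and 1 lower. The lower one was Arl4c, a small GTPase, at 1153, 399.8 and 219 CPM, and its relative Arl4d was higher, at 1.76, 22.5 and 2.19 CPM.

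In the metabolic lists 39 of 389 measured genes (10.03%) were higher and 8 (2.06%) lower, beside 11.2% and 5.12% of all measured genes, so the share called higher was near the background. The respiratory chain lists had 4 of 44 complex I genes, 3 of 30 cytochrome c oxidase and complex III genes and 2 of 17 ATP synthase genes higher, also near that background, and 0 lower. The ATP synthase list had a median log2 ratio of 0.61, beside 0.14 over all measured genes. Once trends over transcript length and GC content were removed, its median was 0.46. Atpif1, the inhibitor of ATP synthase running in reverse, stood at 5.79, 31.5 and 96 CPM, 5.44-fold higher (interval 4.61 to 6.45). The other called ATP synthase gene was Atp5j2, at 55.8, 115 and 156 CPM, and it lost its call with each of the other scalings tried. Against these nuclear genes, the 10 measured genes encoded in mitochondrial DNA had 0 higher and 4 lower. Their summed level was 20910.2 CPM in naive, with 12867 in central memory and 31780.0 in effector memory. This sum is one sign of RNA quality, and its part in the other results was not tested.

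Nucleotide genes had 9 of 42 higher and 2 lower. The enzymes of DNA precursor synthesis Rrm2, Tyms and Tk1 stood at 1.01, 80.3 and 398 CPM, 3.2, 20.2 and 80.7 CPM and 3.92, 28.7 and 166 CPM. They were higher again in effector memory. The AMP deaminases Ampd1 and Ampd3, which turn AMP into IMP, were the 2 lower ones, at 17.9, 0.837 and 0.0313 CPM and 15.3, 2.04 and 0.813 CPM. Samhd1, which breaks down deoxynucleotides, stood at 510.5, 1179.5 and 479.5 CPM, 2.31-fold higher (interval 2.27 to 2.36). Antioxidant and iron genes had 6 of 38 higher and 0 lower. Txn1, thioredoxin, stood at 30.4, 105 and 419 CPM, 3.45-fold higher (interval 3.2 to 3.72), and Gsto1, a glutathione transferase, at 6.33, 50.4 and 37.4 CPM, 7.97-fold higher (interval 6.83 to 9.36). The metallothionein Mt1 stood at 0, 5.95 and 125 CPM. Oxysterol-binding and lipid transfer proteins had 5 of 23 higher and 0 lower. Osbpl3, a member of this family at membrane contact sites, had 4 counts in naive and stood at 0.144, 179.5 and 207 CPM. Stard4, a cholesterol carrier, stood at 29.5, 70.9 and 248 CPM. Sphingolipid enzymes had 0 of 28 higher and 3 lower, with the sphingomyelin synthase Sgms1 at 28, 10.9 and 12.1 CPM. None of 41 mitochondrial import genes was called, and of 33 genes of the citric acid cycle and pyruvate entry 1 was higher.

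Some genes were at the naive level in central memory and low in effector memory. The rule took genes with at least 50 CPM in naive and a central memory level between 0.8 times naive and naive divided by 0.8, 2256 genes in all, and ranked them by how low effector memory lay. The rule fixes the nearness to naive, and the ranking fixes the low effector memory level. Nckap5l stood at 79.7 CPM in naive, with 71.4 in central memory and 1.81 in effector memory, and Dapl1, a death-associated protein-like gene of naive T cells (ENSMUSG00000026989.5, chromosome 2, 59484653 to 59505020), at 70.9, 80.3 and 3.13 CPM. Actn1, the actin cross-linker alpha-actinin 1, stood at 466, 409 and 33.1 CPM and Sidt1, a transmembrane protein of the SID-1 family, at 340.2, 292 and 22 CPM. The lymph node receptor Ccr7, given above, ranked among them. The transcription factors Zbtb20 and Bach2, which both carry a BTB domain, stood at 121, 101 and 13 CPM and 148, 135 and 24 CPM. Bach2 is known as a repressor that restrains effector differentiation. Among receptors, Il27ra, the receptor for interleukin 27, stood at 431, 367 and 71 CPM and the costimulatory receptor Cd27 at 281, 288 and 52.1 CPM. Nfkbia, the NF-kB inhibitor, stood at 93.2, 77.4 and 15.2 CPM. Others were Mdn1, a giant ATPase of ribosome assembly, at 825, 678 and 76.6 CPM, the ubiquitin ligase Herc2 at 578, 634 and 93.4 CPM, and Ehd3, Ms4a4c, Pkd1, Mturn, Tgfbrap1, Ipcef1 and Sh3bp5. The kept genes thus ranged from lymph node homing and costimulation to transcription, adhesion and ribosome assembly.

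Other genes were higher in central memory than in naive and stood near their central memory level in effector memory. The rule took genes called higher, with at least 20 CPM in central memory and an effector memory level between 0.8 times that and that divided by 0.8, 120 genes in all, ranked by the bound of their interval. Osbpl3, described above, was among them. Klrc1, which encodes the inhibitory receptor NKG2A, stood at 0.0719, 64.5 and 57.7 CPM and Itga1, the alpha-1 integrin that binds collagen, at 0, 20.7 and 23.6 CPM. Kit, the stem cell factor receptor, stood at 0.467, 23.8 and 26.9 CPM. Runx2, a Runt family transcription factor, stood at 2.8, 80.4 and 80.4 CPM, and Il10ra, a chain of the interleukin 10 receptor, at 5.89, 97.2 and 92.1 CPM. Soat2, which esterifies cholesterol, stood at 0.359, 30.9 and 36.5 CPM, and Serpina3g, a protease inhibitor of activated T cells, at 1.15, 88.2 and 74.9 CPM. Bcl2l2, a protein that protects from cell death, stood at 2.08, 21.3 and 17.7 CPM. Gabarapl1, Srgap3, Ptprj and Dennd4a, described above, were in the same ranking, with Ppm1j, Farp1, Fam129a, Zcchc18, Itpripl2 and Prr13. Both memory libraries are set here against the same naive library. The rule fixes the nearness of the memory levels, and an order in time was not measured.

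Gene structure was set side by side by call, over protein-coding genes and with the longest transcript of the annotation's basic set for each. This transcript had a median of 2927 bases for higher genes, 3798 for lower ones and 3176 for genes called in neither direction. Median GC content of the transcript was 51.9%, 48.5% and 49.7% in the same order. The span of the gene on the chromosome had medians of 18969, 32292 and 24289 bases. By these medians lower genes had longer, less GC-rich transcripts from longer genes. With the trends over GC content and transcript length removed, 946 of the 1092 higher and 410 of the 499 lower genes were called again. Of the 39 measured T cell receptor and immunoglobulin segments 33 were lower and 6 higher. Without these segments the calls were 1086 higher and 466 lower.

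Promoters were compared over the window from 250 bases before to 50 after the annotated start (RefSeq, build GRCm38.p6). Of the measured genes, 7698 matched a promoter and the 6144 with 1 window were used. Motifs were searched on both strands as fixed letters. The word TTTGAA, the core of the cell cycle homology region of late cell cycle genes, was in 18.4% of 686 higher, 12.3% of 261 lower and 10.9% of 5197 other promoters, and in 16.3% of 13872 promoters of the whole table. It was in 27.4% of the 307 promoters of genes at least 4-fold higher. The word of GAAA and GAAA with any 2 bases between them, the core of the interferon-stimulated response element, was in 2.04% of higher, 7.28% of lower and 3.33% of other promoters, and in 3.59% of the whole table. It was in 11.1% of the 90 promoters of genes at least 4-fold lower. The ETS word CCGGAAGT was in 4.81%, 2.30% and 11.6%, and in 5.50% of the whole table, so it was commonest among genes called in neither direction. A match is a description of letters, and neither a bound site nor a cause was measured.

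These promoter stretches show where the words lie for genes named above or of the same list. Each is printed 5′ to 3′ on the gene's strand with every match in the stretch in capitals, which is the reverse complement of the word where a match is on the opposite strand. The first 3 are spindle kinesins that were higher and hold TTTGAA. In Kif14 (stretch chr1:136467598-136467660, plus strand) the match lies 222 bases from the start, in Kif11 (stretch chr19:37376328-37376381, plus strand) 13 bases and in Kif2c (stretch chr4:117178835-117178910, minus strand) 97 bases. The next 3 are interferon-induced genes that were lower and hold GAAA, any 2 bases and GAAA. They are Rsad2, the antiviral enzyme viperin, at 27.2, 0.949 and 1.66 CPM (chr12:26456528-26456607, minus strand), Ifit3, which binds viral RNA, at 72.3, 4.02 and 0.438 CPM (chr19:34583338-34583417, plus strand), and Slfn5, of the Schlafen family, at 201, 12.5 and 2.22 CPM (chr11:82951912-82951991, plus strand). The last 2, Utp4 and Gar1, are ribosome assembly genes called in neither direction that hold CCGGAAGT. Ifit3 and Utp4 each show a second match. By the GENCODE coordinates, the stretches of Kif14, Kif2c and Slfn5 lie inside their genes. Their RefSeq starts thus differ from the outermost GENCODE starts. Utp4 stood at 65.9, 66.6 and 59.9 CPM (chr8:106893561-106893638, plus strand) and Gar1 at 38.6, 37.8 and 47.8 CPM (chr3:129831398-129831475, minus strand).
Kif14: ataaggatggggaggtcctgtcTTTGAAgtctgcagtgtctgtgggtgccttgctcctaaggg
Kif11: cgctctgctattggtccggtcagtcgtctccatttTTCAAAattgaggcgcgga
Kif2c: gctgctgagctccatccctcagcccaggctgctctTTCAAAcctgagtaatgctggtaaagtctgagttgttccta
Rsad2: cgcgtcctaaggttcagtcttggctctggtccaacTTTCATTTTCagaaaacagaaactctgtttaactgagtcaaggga
Ifit3: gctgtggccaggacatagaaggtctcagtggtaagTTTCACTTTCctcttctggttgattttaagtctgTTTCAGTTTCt
Slfn5: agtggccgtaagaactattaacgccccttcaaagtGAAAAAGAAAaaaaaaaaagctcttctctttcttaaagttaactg
Utp4: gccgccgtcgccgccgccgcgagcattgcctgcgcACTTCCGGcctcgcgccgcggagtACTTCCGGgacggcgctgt
Gar1: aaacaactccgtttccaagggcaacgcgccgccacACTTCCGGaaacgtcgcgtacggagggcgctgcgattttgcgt

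The remaining words were counted in the same way, with shares given for higher, lower and other promoters and then for the whole table. The E-box CACGTG was in 7.87% of higher, 9.20% of lower and 11.3% of other promoters, and in 7.95% of the whole table. The NRF1 word, GCGCA followed directly by TGCGC, was in 1.31%, 1.53% and 2.69%, and in 1.35%. The AP-1 word TGANTCA was in 6.12%, 5.75% and 3.58%, and in 7.14%. The CCAAT box CCAAT was in 42.0%, 36.4% and 39.9%, and in 39.2%. The cyclic AMP response element TGACGTCA was in 3.21%, 1.92% and 3.91%, and in 2.36%. The E2F word TTTCCCGC was in 3.64%, 2.30% and 2.46%, and in 1.54%, and its second form TTTGGCGC in 1.90%, 0.383% and 1.15%, and in 0.670%. The TCF and LEF word CTTTGAA, which contains TTTGAA, was in 3.64%, 4.21% and 3.17%, and in 4.78%. The sterol response element, ATCAC followed directly by CCCAC, was in 1 higher, 0 lower and 1 other promoter, and in 10 of the whole table. The ETS, NRF1, E-box and cyclic AMP words thus had their highest shares among genes called in neither direction.

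**Figure D4:**
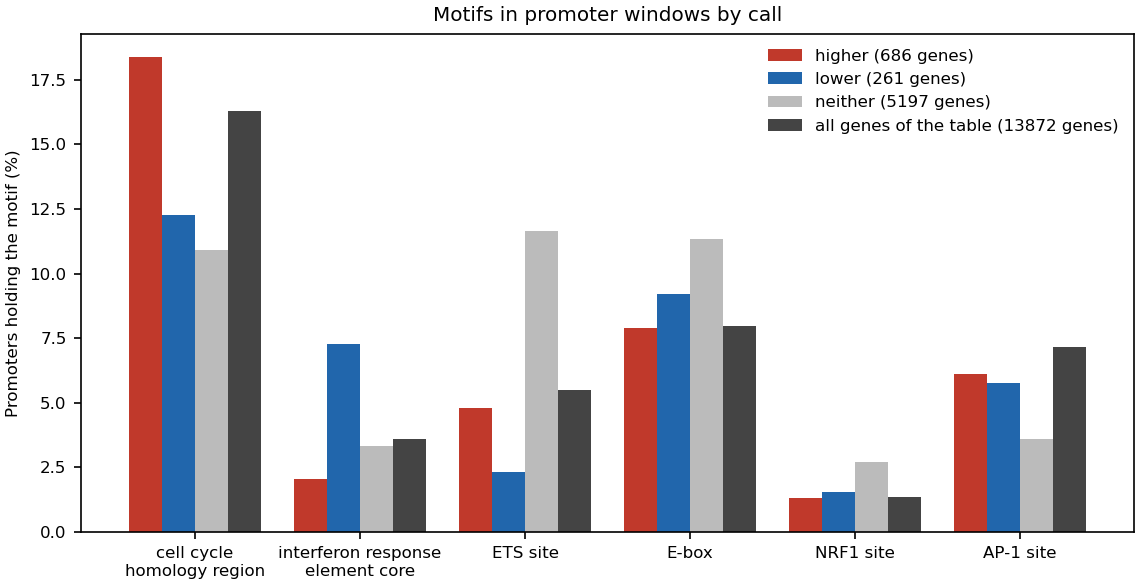
Bars give the percent of promoter windows that hold each motif, for genes called higher (686 windows), lower (261), neither (5197) and all genes of the table (13872). The cell cycle word reaches 18.4% among higher genes, the interferon word 7.28% among lower genes and the ETS word 11.6% among genes called in neither direction.

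Markers of other cells moved with some of these results. Of 13 NK cell markers 8 were measured and 7 were higher. All 7 were under 5 CPM in naive, so their direction was set by the filter. The 13 NK markers summed to 39.9 CPM in naive, with 249 in central memory and 1183 in effector memory, most of it Gzma in the last. The defining receptor Ncr1 stood at 0, 12.2 and 0 CPM and Klrb1c, which encodes NK1.1, at 0.216, 33 and 1.91 CPM. Of 11 B cell and plasma cell markers 2 were measured, and Cd79b, a chain of the B cell receptor, was lower at 14.6, 2.76 and 2.19 CPM. The B cell sum was 38.6, 7.17 and 3.41 CPM, and the lower genes Pou2af1 and Cnr2, which B cells also express, moved with it. None of 21 myeloid and dendritic markers or 13 red cell and platelet markers was measured. Their sums were 10.7, 9.71 and 37.9 CPM and 7.58, 3.38 and 4.06 CPM. Of 10 markers of CD4, regulatory and gamma delta T cells 2 were measured and both were higher, Zbtb7b and Ikzf4. Both were under 5 CPM in naive, so their direction was set by the filter too. Cd4 itself was lower than 3 CPM in each library. The part of other cells in the differences was not tested.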

How the data were processed

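RNA of splenic CD8+ T cells was sequenced in 1 library each of naive, central memory and effector memory cells. The authors deposited raw read counts, whole numbers with 1 row per gene symbol. The build mm10 and the tools featureCounts 1.5.0-p3, HISAT2 2.0.5 and CASAVA are named, with no role or order, per the submitters' processing notes. Which annotation, strand setting and rule for reads that map to several places was used is not given in the sources used here, so overlapping, antisense and near-identical genes cannot be told apart. The columns TN, TCM and TEM were matched to the groups by their abbreviations. The libraries held 26876909 counts (naive), 35846315 (central memory) and 33087462 (effector memory), and 3 counts were taken as the upper limit of a count of 0.

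Counts were scaled to CPM of effective library size with TMM factors of 1.04, 0.999 and 0.967 (edgeR 4.0.16, R 4.3.3). The comparison was the ratio of central memory to naive CPM with its 95% exact (Clopper-Pearson) interval. A gene at 0 in 1 library was given its bound against 3 counts. Calls needed 5 CPM or more in the library with the higher level, a ratio of 2 or more, and an interval that leaves out 1, and the calling script was tested on simulated data. No p-value was computed, since each group has 1 library.

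There were 70 gene lists, most defined by symbol pattern, 5 of them markers of other cells. The comparison, the lists and the naming rule were chosen with earlier results of these data known, and 2 list patterns that took in wrong genes were corrected after values were seen. The rule named up to 4 called members of each list with the largest ratios and members central to the list's name. It also named the 30 genes each way with the most extreme interval bound at 20 CPM or more, and the 10 largest gains and losses in CPM. Further named were 20 kept genes, 20 higher genes with near levels in both memory libraries, and the label checks. Some genes the rule takes are not given. In long lists, further called members were chosen after their values were seen, as were Utp4 and Gar1 as examples. Gene coordinates, lengths and GC content came from GENCODE M21 (GRCm38), which held 98.7% of the symbols, and promoter windows from RefSeq (GRCm38.p6). Alternatives were upper quartile factors, total counts, size factors of DESeq2 1.42.0, minima of 1 and 20 CPM, ratios of 1.5 and 4, removal of trends with GC content and transcript length, and, added after seeing the data, leaving out receptor segments. Other computation used Python 3.11.15, SciPy 1.17.1, pandas 2.3.3 and statsmodels 0.14.6.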

Additional observations from a re-analysis of the deposited data

How the results depend on the processing

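No paired analysis was possible because each group has 1 library. The number of called genes depended on the thresholds: 1092 genes were higher, 544 at a minimum of 20 CPM, 2143 at a ratio of 1.5 and 509 at a ratio of 4. For lower genes the 499 became 937 at a minimum of 1 CPM, 286 at 20 CPM, 1051 at a ratio of 1.5 and 193 at a ratio of 4. Scaling moved the counts less, to between 917 and 1019 higher and between 547 and 609 lower with upper quartile factors, DESeq2 size factors and total counts. Of 321 genes named by the rule, 19 lost their call with upper quartile factors, 17 with DESeq2 size factors and 10 with total counts, and none changed direction. Among those that lost it were Ctsd, Atp5j2, Cox5a, Pgm1 and Gramd3. Cd8b1, Il7r and mt-Cytb, at 1055 and 539.6 CPM, 522 and 266 CPM and 3004 and 1513 CPM in naive and central memory, were called lower only with the other scalings. Depth limits weak genes: under 5 CPM in both libraries no call was made, and ratios against 2 to 8 counts have wide intervals.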

Other observations

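Immediate early genes, induced within minutes of stimulation, had 20 measured members, of which 11 were lower in central memory and 2 higher. The median log2 ratio was -1.14 and the summed level was 2547 CPM in naive, with 1509.9 in central memory and 1819 in effector memory. The list was chosen after values were seen. Fos stood at 122, 0.614 and 1.63 CPM and Dusp1 at 91.1, 5.44 and 9.26 CPM.

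Single-exon gene models that the annotation marks as awaiting experimental proof made up 30 of the 499 lower genes. Of 69 such models measured, these 30 (43.5%) were lower and 8 higher, beside 5.12% and 11.2% of all measured genes, and their summed level was 1062 CPM in naive, with 705 in central memory and 483 in effector memory. Most of the 30 lower models were under 5 CPM in central memory. Those count as measured only through naive, so their direction was set by the filter, which limits the contrast with all measured genes. Of the 69 models, 37 lay inside a measured protein-coding gene on the same strand, 36 of them without overlap of its exons. Of the 37 models 21 were lower, while 4 of the 33 host genes were lower, and the hosts' median log2 ratio was -0.19. The model lay below its host in 27 of 37 cases.

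Leaving out receptor and immunoglobulin segments, the share of measured genes called higher ran from 7.14% on chromosome X to 13.4% on chromosome 9 over the autosomes and chromosome X, and the share called lower from 2.59% on chromosome 8 to 7.52% on chromosome 16.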
